A study of Drosophila melanogaster with 76 samples.

Results

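Peaks near the centromeres of 4 chromosome ends were taken from 40 ChIP-seq peak lists of Drosophila melanogaster. A peak belonged to the set when its midpoint lay, on build dm6, on 2L from 22 Mb, on 3L from 23 Mb, on 3R up to 5 Mb or on X from 22 Mb. These windows span 13.2 Mb, which is 9.58% of the 137.4 Mb that peaks reached. They held 36271 of 287995 peaks, and merging overlapping peaks over all lists gave 5399 regions of 31959 in the whole series. The chromosome end 3L had 2188 of these regions, 3R 2171, 2L 643 and X 397. Their median length was 710 bp and the longest measured 28074 bp.

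DNA close to the centromeres of fly chromosomes is mostly heterochromatin, rich in transposon remnants and satellite repeats and packed by HP1 on histone H3 methylated at lysine 9. This packing is set up during the first hours of the embryo, while transcription of the zygote's own genes begins. The protein-coding genes inside heterochromatin are often very long, because repeats fill their introns, and some need heterochromatin for normal expression. Zelda and GAF are pioneer factors, proteins able to bind closed chromatin and make it accessible, and GAF binds GA-rich DNA, including some satellites. RNA polymerase II (Pol II) was also mapped with an antibody to its form phosphorylated on serine 5 (pSer5), which marks initiation and early elongation. IntS11 is the endonuclease of the Integrator complex, which cuts nascent RNA at small nuclear RNA genes and at many promoters.

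Zelda, GAF, Pol II and pSer5 were mapped in embryos labelled WT and in embryos labelled Mutant, at 1-1.5 h and at 2.5-3 h. The words IntS11 mislocalized stand in the titles of both genotypes of these 4 antibodies, and the labels say neither which allele the mutant carried nor what the name means for the wild type. IntS11 itself was mapped in embryos labelled WT at both stages, and Pol II in larvae labelled 48AEL, of the genotypes WT and ZygoticMutant. Each group had 2 lists from ChIP reactions run in duplicate. Nothing says whether these came from separate collections, so p-values measure the spread between lists, which may be technical. Input samples are titled by genotype and stage but not by antibody, so the antibodies may share chromatin. The tests treat antibody-stage pairs as separate, and p-values are too small if they are not. The lists hold positions without heights or reads, so depth is unknown, and a list had 1276 to 12202 peaks. The shortest peak of a list measured 249 to 328 bp in wild-type and 208 to 261 bp in mutant embryo lists. How reads from repeated DNA were placed is not given in the sources used here, and its part in the results was not tested.

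More peaks lay near the centromeres in mutant embryos, for all 4 antibodies, while the sum over the rest of the genome held fewer. That remainder was not uniform, since 2R up to 5 Mb and Y also took larger shares in the mutant. Wild-type lists of Zelda, GAF, Pol II and pSer5 put 1.67% to 7.69% of their peaks in the windows (median 2.47%, 16 lists). Mutant lists put 15.0% to 43.8% there (median 27.8%, 16 lists). The genotypes did not overlap at all in this share. The mean share was 2.97% in wild type and 28.1% in the mutant, a difference of 25.2 percentage points (two-sided exact permutation with genotypes exchanged inside each antibody-stage pair, p = 1.19e-06, which no arrangement can undercut, adjusted p = 5.56e-06 over 14 tests). By number, the mutant had 6.29-fold more window peaks over the 8 comparisons (log2 2.65, exact permutation p = 2.38e-06, adjusted p = 8.34e-06), and outside the windows 0.176 to 0.879 times as many as wild type. Restricting all lists to peaks of at least 500 bp, or joining nearby intervals, left the rise in number past the exact permutation test.

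Pol II and pSer5 showed the largest numbers at 1-1.5 h. The 2 wild-type Pol II lists had 171 and 164 window peaks and the mutant lists 3865 and 3545, so that 43.8% and 43.2% of all mutant Pol II peaks lay in the windows. Wild-type Pol II had 237 and 211 window peaks at 2.5-3 h, and the mutant had 1861 and 2144. The early pSer5 lists had 168 and 192 peaks in wild type against 4165 and 4116 in the mutant. The late pSer5 lists had 262 and 232 against 1879 and 1738. Each mutant list of these antibodies held at least 6.63 times as many as either wild-type list of that antibody and stage. The joint fold over both antibodies and stages was 13.5 (log2 3.75, exact permutation p = 0.00154, adjusted p = 0.0024).

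Zelda and GAF followed with smaller folds. Early Zelda had 212 and 184 window peaks in wild type against 854 and 776 in the mutant, and late Zelda 284 and 330 against 677 and 535. GAF had 184 and 147 against 1422 and 953 at 1-1.5 h. At 2.5-3 h the GAF lists overlapped in number, with 697 and 557 in wild type against 665 and 1006 in the mutant. Their shares did not, since 7.69% and 6.89% of the wild-type and 18.5% and 18.2% of the mutant GAF peaks lay in the windows. The joint fold of Zelda and GAF was 2.94 (log2 1.55, exact permutation p = 0.00309, adjusted p = 0.00432). In percentage points the genotype difference was 13.5 larger for Pol II and pSer5 than for Zelda and GAF. Its exact permutation p was 0.225, with no genotype effect anywhere as the null. Exchanging genotypes spreads this contrast by the genotype difference itself, so the test cannot tell whether the classes of antibody differ.

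**Figure D1:**
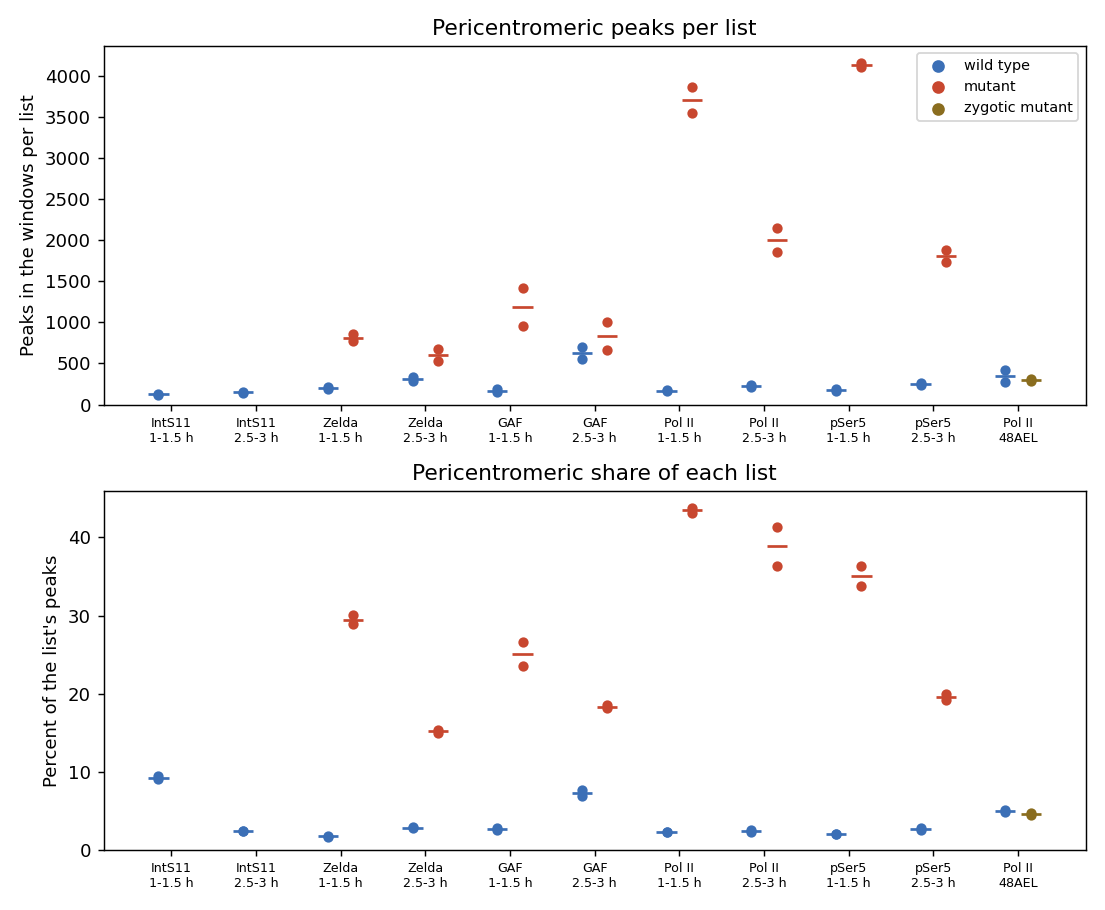
Number of peaks in the 4 windows per list (upper panel) and percent of each list's peaks that lie there (lower panel), by antibody and stage. Points are lists and short lines the mean of 2 lists; mutant embryo lists lie at 15.0% to 43.8%, and wild-type lists of the same 4 antibodies at 1.67% to 7.69%.

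The DNA under window peaks grew in length as well as in number. Wild-type lists covered 0.0928 to 0.4 Mb of the windows (median 0.235 Mb) and mutant lists 0.368 to 3.81 Mb (median 1.25 Mb). Over the 8 comparisons this was 5.28-fold more in the mutant (log2 2.40, exact permutation p = 1.19e-06, adjusted p = 5.56e-06). Window peaks took 2.35% of all covered DNA in wild type and 29.7% in the mutant on average. The single peaks were shorter in the mutant, and not only in the windows. Outside them the median per list was 382 to 630 bp in the mutant against 556 to 1050 bp in wild type. Inside the windows it was 410 to 600 bp against 443 to 910.5 bp (log2 difference -0.33, exact permutation p = 0.000681, adjusted p = 0.00191). GAF went the other way at both stages, and the difference did not pass with peaks of at least 500 bp (-0.08, p = 0.147), with nearby intervals joined (-0.03, p = 0.477), or without 3R (-0.09, p = 0.149; all exact permutation).

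Along the windows the genotypes lay in different places. Wild-type peaks were densest on 3R from 4 to 5 Mb, at a median over the 8 groups of 107.5 and 128 peaks per Mb in its 2 bins of 0.5 Mb, and on 2L from 22 to 22.5 Mb, at 40.5 per Mb. Deeper in, wild-type medians were 0 to 21 per Mb. Mutant medians were 97.5 to 226 per Mb on 3R from 0 to 4 Mb, and 64 to 140.5 per Mb in the full bins of 3L. On X the mutant median was 152.5 per Mb from 22 to 22.5 Mb, 24.5 per Mb in the next bin and 186 per Mb from 23 to 23.5 Mb. Just outside the set, on X from 21.5 to 22 Mb, the mutant median was 147.5 against 15.5 per Mb in wild type. This bin holds lncRNA:flam at X 21631891-21790731, the flamenco locus, which produces piRNAs against transposons in the ovary. On 3R from 5 to 5.5 Mb, also outside, the medians were 28.5 in the mutant and 145.5 in wild type.

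**Figure D2:**
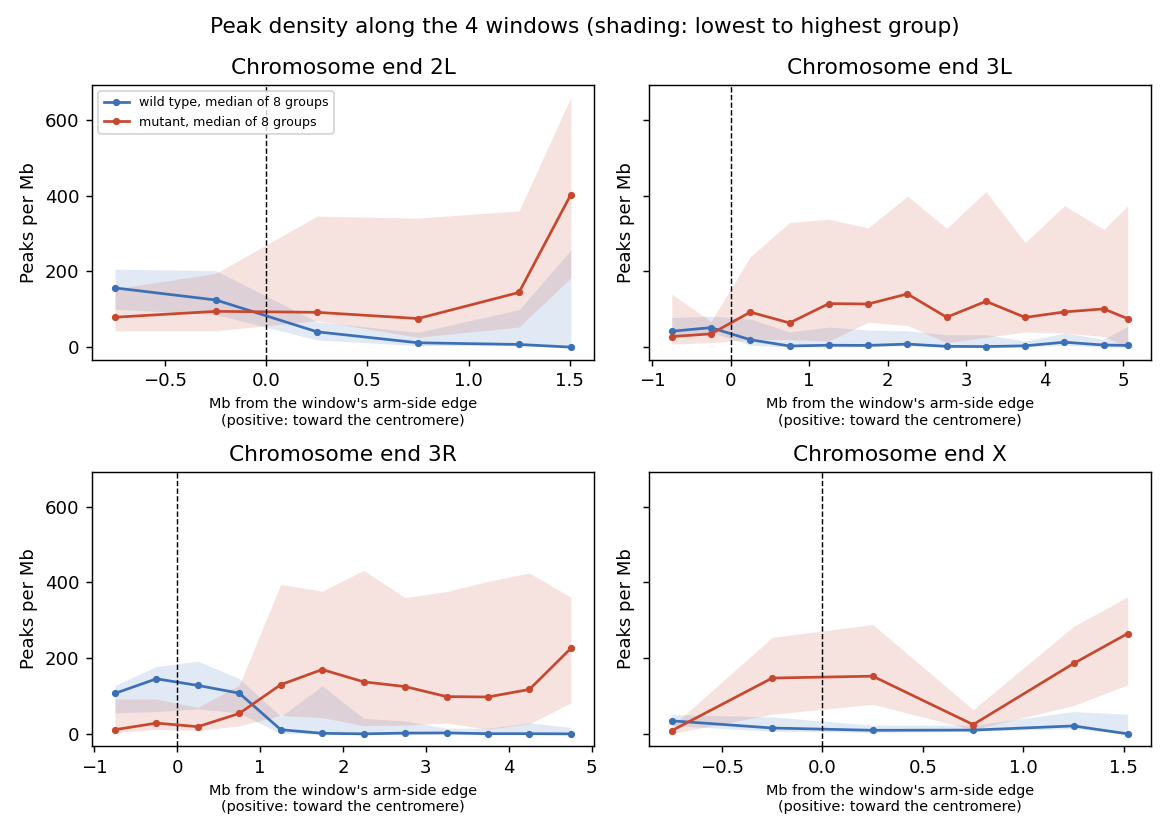
Peaks per Mb in bins of 0.5 Mb along the 4 chromosome ends, against distance from the arm-side edge of the window in Mb (positive toward the centromere, dashed line at the edge). Lines are medians of 8 groups (4 antibodies at 2 stages) and shading spans the lowest to the highest group, with a last bin on 2L, 3L and X shorter than 0.5 Mb; on 3R the lines cross about 1 Mb inside the edge, between bins with wild-type medians of 107.5 and 11 peaks per Mb.

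The part of the 3R window from 4 to 5 Mb thus went against the rest. This split was chosen where the densities of the genotypes cross, so its values are a description and no p-value is given. On 3R from 4 to 5 Mb wild-type lists had 57 to 174 peaks and mutant lists 18 to 85, and in all 8 comparisons both mutant lists were below both wild-type lists (mean log2 difference -1.34). These peaks made up 16.4% to 67.9% of the window peaks in wild type (median 53.1%) and 1.24% to 9.01% in the mutant (median 2.59%). In the rest of the windows wild type had 54 to 583 peaks and the mutant 493 to 4094, a 12.5-fold difference. By antibody and stage this fold ran from 1.53 for GAF at 2.5-3 h to 64.6 for pSer5 at 1-1.5 h. For Pol II it was 43.2 and 19.6, and for Zelda 12.1 and 4.02 at the earlier and the later stage.

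With stage, the mutant share fell and the wild-type share had no common direction. Over the 4 antibodies the mutant share was 33.3% at 1-1.5 h and 22.98% at 2.5-3 h, lower at the later stage for each antibody (difference -10.3 points, exact permutation of stage within antibody, p = 0.00154, adjusted p = 0.0024). In wild type the shares of Zelda, GAF, Pol II and pSer5 were higher at 2.5-3 h, by 1.07, 4.65, 0.151 and 0.583 points, and that of IntS11 was lower, so that the mean over 5 antibodies differed by -0.08 points (exact permutation p = 0.844). Without IntS11 the wild-type difference was 1.61 points. IntS11 was left out here after its opposite direction was seen, so this value is a description without a p-value. Most of the GAF change lay away from 3R 4 to 5 Mb, where its number went from 120 and 90 peaks to 583 and 456. The genotype difference was 11.9 points smaller at 2.5-3 h (exact permutation p = 0.284, with no genotype effect anywhere as the null). Here too the exchange spreads the contrast by the genotype difference itself, so the test cannot tell whether the stages differ.

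IntS11 had a larger share of its peaks near the centromeres at 1-1.5 h than any other wild-type embryo list. Its early lists held 128 and 120 window peaks, its late lists 144 and 158, while its peaks in the whole genome went from 1410 and 1276 to 6065 and 6552. The share was 9.08% and 9.4% at the earlier and 2.37% and 2.41% at the later stage. The difference of IntS11 between stages lay 8.46 points below the mean difference of the other 4 antibodies. This contrast was chosen after the directions were seen, so no p-value is given. Of window regions in both lists of a stage, 48 were found only at 1-1.5 h, 37 at both and 57 only at 2.5-3 h. Over the whole genome these classes took 1.2%, 9.55% and 47.6% of the merged regions, against 16.4%, 12.6% and 19.5% in the windows. Of the regions in both early lists, both late lists also had 42.5% inside and 92.5% outside the windows.

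The early IntS11 peaks lay where the mutant lists of the other antibodies had peaks. Of 128 and 120 window peaks of wild-type IntS11 at 1-1.5 h, 127 and 119 were overlapped by a mutant list, and 86.7% of each list by at least 8 of the 16 mutant lists. Wild-type lists of the same antibodies overlapped 41 and 39 of them, 13.3% in at least 8 lists. Outside the windows the order was the reverse, with 81.4% and 84.9% of IntS11 peaks in at least 8 wild-type lists and 28.1% and 27.2% in at least 8 mutant lists. At 2.5-3 h the window peaks were overlapped by any wild-type list at 88.2% and 88.6% and by any mutant list at 82.6% and 83.5%. The mutant lists together cover 6380828 bp of the windows and the wild-type lists 998280 bp, so overlap by position alone is more frequent with the mutant lists. IntS11 peaks on 3R from 4 to 5 Mb numbered 12 and 10 in the early lists, then 70 and 67 in the late ones, while those in the rest of the windows went from 116 and 110 to 74 and 91.

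**Figure D3:**
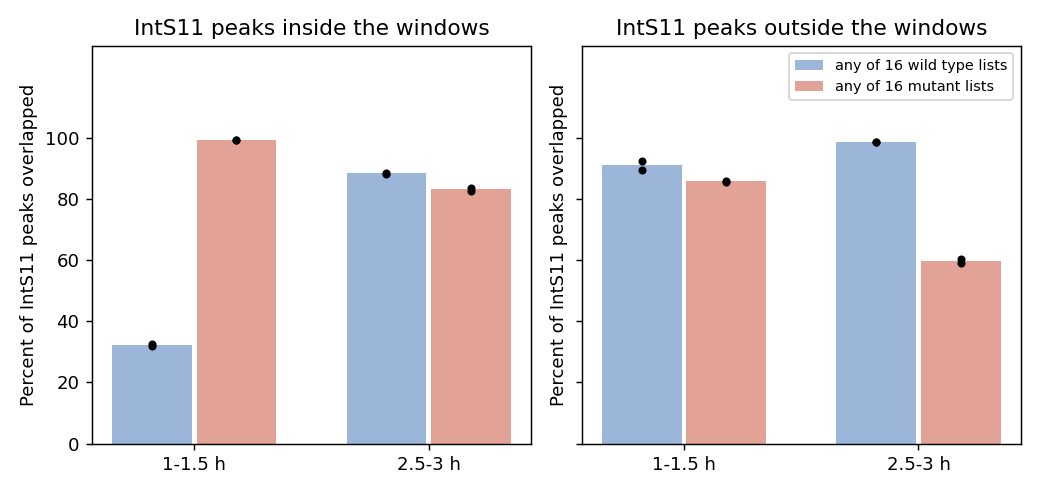
Percent of wild-type IntS11 peaks overlapped by any of 16 wild-type or 16 mutant lists of Zelda, GAF, Pol II and pSer5, inside and outside the windows, at 1-1.5 h and 2.5-3 h. Bars are means and points the 2 IntS11 lists; inside the windows at 1-1.5 h, 127 of 128 and 119 of 120 peaks met a mutant list, and 41 and 39 a wild-type list.

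Most window regions belonged to mutant embryos alone. Of 5399 regions, 4402 (81.5%) had a peak in at least 1 mutant and no wild-type list of the 4 antibodies, 594 in both and 296 (5.48%) in wild type only. Over all 31959 merged regions the corresponding counts were 13069 (40.9%), 6307 (19.7%) and 10389 (32.5%). The remaining 107 came from IntS11 or larval lists. Single lists made up 1256 regions, with a median length of 324 bp. All 16 mutant lists shared 100 regions, with a median of 4073 bp, and all 16 wild-type lists shared 31, with a median of 5643 bp. At least 8 mutant and no wild-type list marked 773 regions, whereas at least 8 wild-type and no mutant list marked 36. These 4 counts are 1.85%, 0.574%, 14.3% and 0.667% of the window regions, against 0.726%, 6.13%, 5.67% and 6.47% of all merged regions. Longer regions meet more lists by position alone.

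Within the mutant, antibodies met at the same window regions. At 1-1.5 h a Zelda window peak was overlapped by Pol II at 95.3% on average (92.9% to 96.3% over 4 pairs of lists), against 60.7% outside the windows. GAF peaks met Pol II at 84.9% inside and 58.3% outside. At 2.5-3 h Zelda peaks met Pol II at 78.2% inside and 20.7% outside, and GAF peaks at 43.0% and 16.4%. The reverse shares were lower, since Pol II had more peaks, and 16.3% of early mutant Pol II window peaks met Zelda. Over all ordered pairs of different antibodies at 1 stage the median overlap of mutant lists was 47.0% inside and 25.8% outside, while in wild type it was 49.7% and 62.1%. Peaks are denser inside the windows in the mutant and outside in wild type, so these overlaps also follow density. Replicate lists met at a median of 77.1% in the mutant and 74.0% in wild type inside the windows.

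Regions were then classed within each comparison of 4 lists. Gained regions had peaks in both mutant lists but in neither wild-type list, lost regions the other way round, and kept regions in all 4 lists. For Pol II at 1-1.5 h the windows had 2438 gained, 58 lost and 45 kept of 4389 regions (55.5%, 1.32% and 1.03%), where the whole genome had 29.8%, 27.7% and 3.94%. At 2.5-3 h Pol II had 1467 gained, 156 lost and 7 kept of 2561, against 20.3%, 41.7% and 0.488% in the whole genome. For pSer5 at 1-1.5 h 3241 regions were gained, 97 lost and 27 kept of 4589, against 34.3%, 26% and 2.93% genome-wide. The later pSer5 comparison had 1257 gained, 132 lost and 44 kept of 2302, against 21.6%, 33.1% and 9.05%. The gained share was thus above, and the lost share below, the genome-wide value in each Pol II and pSer5 comparison.

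Zelda at 1-1.5 h had 511 gained, 130 lost and 7 kept of 1267 window regions, against 8.04%, 53.6% and 3% in the whole genome. At 2.5-3 h Zelda had 369 gained, 168 lost and 22 kept of 1077, against 5.95%, 44% and 7.34%. For GAF at 1-1.5 h 661 were gained, 63 lost and 28 kept of 1649, against 20.3%, 37% and 5.19%. At 2.5-3 h GAF had 257 gained, 152 lost and 189 kept of 1469, against 4.85%, 29.5% and 17.1%. The windows, 9.58% of the span, held 28.7% to 47.8% of all gained regions and 1.22% to 4.19% of all lost ones. Of the window regions that both wild-type lists had, all 4 lists shared 47.8% for late GAF (32.1% outside) and 39.1% for early Pol II (11.3% outside), but 4.19% for late Pol II (1.07% outside). Summed over the 8 comparisons, 10201 window regions were gained, 956 lost and 369 kept. Without wild-type replicate 2 the lost sum was 1499, a looser rule by construction.

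**Figure D4:**
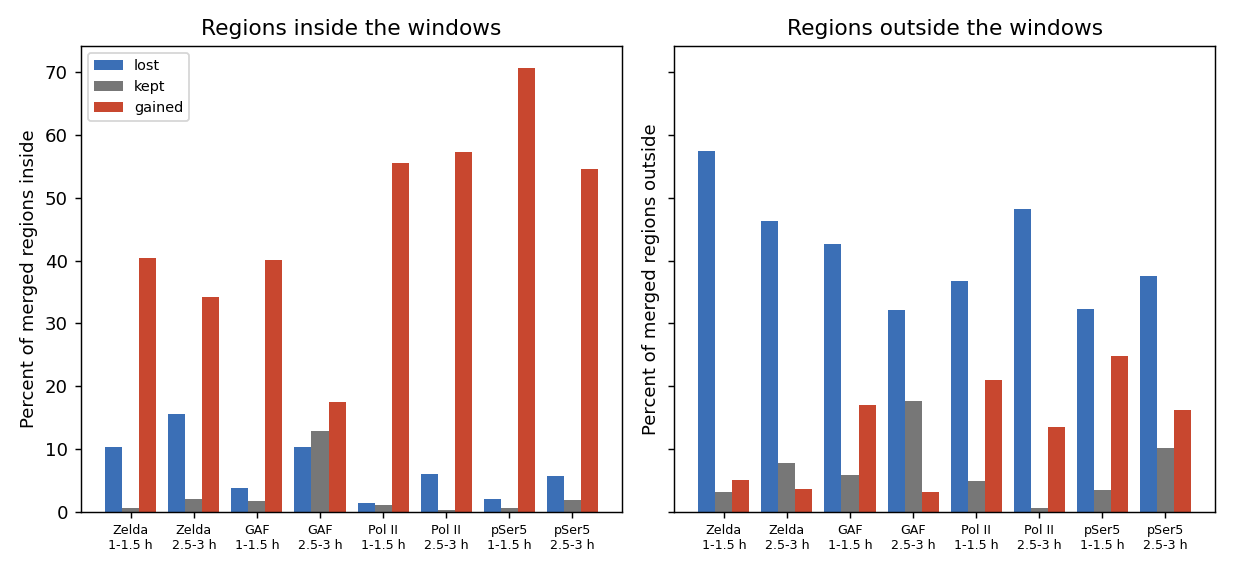
Percent of merged regions lost, kept or gained in the mutant in each of 8 comparisons, inside (left) and outside the windows (right). Inside, gained regions are 17.5% to 70.6% of the regions and lost ones 1.32% to 15.6%; outside, gained ones are 3.14% to 24.7% and lost ones 32.1% to 57.5%.

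The same classes were formed between stages, with lost regions found only at 1-1.5 h and gained regions only at 2.5-3 h, each in both lists. In the mutant, pSer5 had 1795 lost, 997 kept and 44 gained of 4511 window regions, against 20.8%, 18.4% and 9.66% in the whole genome. Mutant Pol II had 1201 lost, 937 kept and 155 gained of 4533, against 25%, 19.9% and 3.26%. Both antibodies left more regions than they took up between the stages, in the windows as in the whole genome. For Pol II the window shares were close to the genome-wide ones. Mutant GAF had 358 lost, 189 kept and 219 gained of 1999, against 17.2%, 10.4% and 18.9%, and mutant Zelda 178 lost, 257 kept and 78 gained of 1320, against 7.34%, 14.2% and 16.3%.

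In wild type GAF had the most new regions, with 5 lost, 94 kept and 262 gained of 815, against 3.65%, 37.6% and 13.2% genome-wide. Wild-type Zelda had 11 lost, 121 kept and 55 gained of 406, against 8.63%, 42.5% and 4.7%. Pol II had 9 lost, 103 kept and 37 gained of 303, against 1.94%, 42.6% and 10.8%. The pSer5 lists gave 5 lost, 103 kept and 52 gained of 288, against 1.79%, 48.5% and 12%. Of the window regions in both early wild-type lists, both late lists also had 82.3% for Zelda, 87.9% for GAF, 89.6% for Pol II and 91.2% for pSer5.

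Mutant window peaks were seldom at gene ends, at a share below but near that of window DNA. Of window DNA, 4.37% lies within 500 bp of an end of a gene record and 47.8% inside a gene record. Wild-type window peaks were at gene ends at 44.0% on average and outside genes and their ends at 21.6%. In the mutant 3.16% were at gene ends and 60.1% outside genes. These shares are over all windows together, and the genotypes lay in different places. A median of 53.1% of wild-type but 2.59% of mutant window peaks lay on 3R from 4 to 5 Mb. The difference at gene ends was -40.8 points (exact permutation, p = 1.19e-06, adjusted p = 1.59e-06 over 4 tests), and in all 8 comparisons the mutant lists lay below the wild-type ones. The share inside genes away from ends was 34.4% and 36.8% (exact permutation p = 0.323). Outside the windows the share at gene ends also differed, at 59.4% in wild type and 21.7% in the mutant (difference -37.7 points, exact permutation p = 1.19e-06). Early IntS11 was nearer to the mutant lists than to the wild-type lists, with 12.5% and 13.3% of window peaks at gene ends and 77.3% and 79.2% outside genes, and at 2.5-3 h 43.8% and 44.9% were at gene ends. These tests were chosen after the data were seen.

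**Figure D5:**
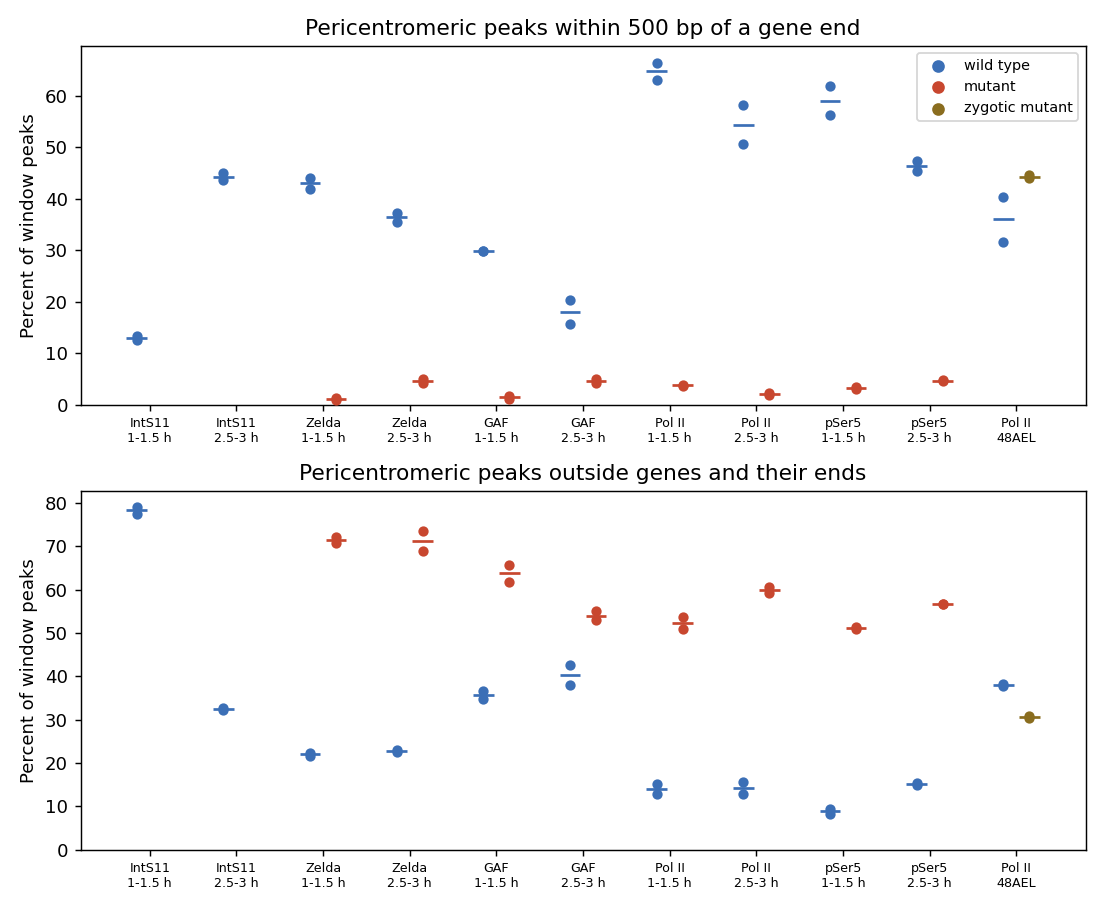
Percent of window peaks within 500 bp of a gene end (upper panel) and outside genes and their ends (lower panel), by antibody and stage. Points are lists and short lines the mean of 2 lists; averaged over the 4 antibodies, wild type lies at 44.0% and 21.6% and the mutant at 3.16% and 60.1%.

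The windows hold 362 of 17807 gene records, 236 of them protein-coding, 60 long noncoding RNAs and 8 microRNAs. On 3R from 4 to 5 Mb, where 95 of the protein-coding genes lie, Pol II in both wild-type lists was at an end of 51 genes at 1-1.5 h and 55 at 2.5-3 h, and in both mutant lists at 3 and 0. Zelda was at 57 and 61 in wild type and at 1 and 5 in the mutant. The genome-wide direction was the same, since Pol II was at an end of 46.1% of the 13946 protein-coding genes in early wild type against 6.35% in the mutant, and late at 52.1% against 1.46%, while Zelda was at 45.8% against 1.29% and late at 42.8% against 4.4%. Among the 141 elsewhere in the windows, early Pol II was at 37 in wild type against 56 in the mutant, and late Pol II at 50 against 5. For pSer5 the 141 genes gave 38 and 47, then 55 and 16. Zelda was at 18 against 1 and late at 25 against 1, and GAF at 6 against 3 and late at 38 against 7. In this deeper part the early mutant thus had more bound gene ends than wild type with Pol II and pSer5, against the genome-wide direction. Zelda and GAF had fewer early, and all 4 antibodies had fewer at 2.5-3 h, as in the whole genome. Among all 17807 records, pSer5 shares (wild type, then mutant) were 48.6% and 8.58% early, 55.6% and 14.0% late. For GAF they were 26.8% and 3.12%, then 29.9% and 8.75%. Early mutant peaks covered 3.65 and 3.07 Mb of the windows with Pol II, and 3.81 and 3.77 Mb with pSer5. Gene ends there meet such peaks more often by position alone, and this part was not tested.

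Over all 362 records, early Pol II was lost in the mutant at 50 gene ends, kept at 45 and gained at 40, where 34.3%, 5.54% and 1.19% of all 17807 records were lost, kept and gained. Of the 114 records with early wild-type Pol II, 43.9% lost it, against 81.7% of such records in the genome. At 2.5-3 h 130 were lost, 3 kept and 31 gained, against 45.3%, 1.18% and 0.837%. Early pSer5 was lost at 75, kept at 35 and gained at 63, against 37.6%, 5.97% and 2.02%, and late pSer5 at 89, 42 and 30, against 36.3%, 12.5% and 1.25%. Early Zelda was lost at 90, kept at 2 and gained at 8 ends, against 40.9%, 1.8% and 0.197%. Late Zelda was lost at 90, kept at 7 and gained at 16, against 33%, 4.94% and 0.326%. Early GAF was lost at 52, kept at 4 and gained at 9, against 23.1%, 2.66% and 0.371%. Late GAF was lost at 71, kept at 27 and gained at 4, against 19.4%, 8.38% and 0.241%. Among records bound in wild type, late Pol II was lost at 94.9%, against 95.6% in the genome. Zelda was lost at 95.7% early and 78.9% late, against 93.9% and 80.6%. For GAF the shares were 89.7% and 60.7%, against 86.1% and 64.8%. These shares were near the genome-wide ones. Early and late pSer5 were lower, at 58.1% and 58.2%, against 77.3% and 65.2%.

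Long genes deep in heterochromatin had much DNA under peaks in the mutant. Covered length is the DNA under peaks over the gene and 500 bp to either side, and it grows with gene length. Early mutant Pol II covered 31.9% and 25.4% of this span at lovit and 24.1% and 18.7% at Snap25. The same lists covered 3.65 and 3.07 Mb of the 13.2 Mb of windows, so such cover is not particular to these genes. lovit, at 3L 25236940-25670980, codes for a transporter of visual neurons. It had a peak in 5 of 16 wild-type lists and in 16 of 16 mutant lists, with covered length from 0 to 5863 bp (median 0) and from 5488 to 162737 bp (median 39054 bp). By antibody at 1-1.5 h, the mutant lists covered 138602 and 110682 bp with Pol II, 159018 and 162737 bp with pSer5, 29961 and 17354 bp with GAF and 12118 and 10596 bp with Zelda, and the wild-type lists 0 with each. Snap25, at 3L 24074180-24299205, codes for a SNARE protein of synaptic vesicle release. Its covered length was 0 to 8036 bp in wild type and 1004 to 63629 bp in the mutant, and the ranges overlapped through wild-type GAF lists, which had 2871 and 985 bp early and 8036 and 3917 bp late. AGO3, at 3L 23554593-23689640, an Argonaute of the piRNA pathway, had 0 to 4430 bp against 1653 to 42778 bp, again with GAF as the highest wild-type lists.

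Pzl, the Piezo-like channel gene at 3R 2554162-3263582, already carried GAF in wild type. Early wild-type GAF covered 12927 and 7880 bp of it, and late wild-type GAF 47118 and 38046 bp. In the mutant GAF covered 110580 and 47048 bp early, then 95318 and 162171 bp late. Zelda, Pol II and pSer5 covered at most 1696 bp of Pzl in any wild-type list. The least that a mutant list of these antibodies covered was 10569 bp, with Zelda at 2.5-3 h. Parp1, at 3R 3461351-3587054, codes for the enzyme that adds ADP-ribose chains to chromatin proteins and had 0 to 1566 bp in the wild-type lists against 999 to 47689 bp in the mutant lists. Myo81F, a myosin gene at 3R 567076-2532932, is the longest gene record of the windows and had 0 to 24140 bp against 13557 to 675216 bp.

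The 23 genes of a list of long-studied heterochromatic genes that lie in the windows went both ways. Mean covered share of the span was higher in the mutant for 15 and lower for 8, where over all 362 records it was higher for 147, lower for 163 and equal for 52. Pol II was at an end of 7 of the 23 in early wild-type lists against 12 in early mutant lists, and of 11 against 0 later. Over all records Pol II was at an end of 42.0% against 7.08% early, and of 47.4% against 2.15% later. nrm, which codes for a cell adhesion protein, was lower, with a peak in 14 of 16 wild-type and 1 of 16 mutant lists. CkIIalpha, the catalytic subunit of casein kinase II at 3L 23097072-23103460, had a peak in 14 and 3. On 3R from 4 to 5 Mb 78 of 95 protein-coding genes were lower and 11 higher, and of the 141 elsewhere 44 were lower and 71 higher.

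RpL5 and RpL15, which code for proteins of the large ribosomal subunit, carried mutant Pol II peaks at 1-1.5 h and none at 2.5-3 h. RpL5, at 2L 22532279-22536884, was covered over 782 and 726 bp by early wild-type Pol II, and over 4286 and 3381 bp by early mutant Pol II. Late Pol II covered 2641 and 1167 bp in wild type but 0 in both mutant lists. RpL15, at 3L 27267255-27268445, had 770 and 606 bp against 1818 and 1686 bp at the early stage, and 1998 and 1310 bp against 0 and 0 at the later one. The pSer5 lists differed from this, since late pSer5 on RpL5 measured 3295 and 3163 bp in wild type against 1895 and 2167 bp in the mutant. Larval Pol II on RpL15 measured 1946 and 1343 bp in wild type against 2015 and 1736 bp in the zygotic mutant.

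On 3R from 4 to 5 Mb peaks at several genes were shorter or missing in the mutant. opa, a zinc-finger pair-rule gene at 3R 4852813-4869979, lies under the longest region of the set, 3R 4843501-4871574. Early Zelda covered 24851 and 23974 bp of this region in wild type against 2950 and 3744 bp in the mutant. Late Zelda covered 23275 and 23404 bp against 16666 and 15635 bp, so that the mutant difference was smaller at the later stage. Late Pol II covered 15670 and 14101 bp in wild type but 0 in both mutant lists, and GAF had no peak there in any mutant list. In larvae Pol II had no peak there in either genotype. Ubc6, a ubiquitin-conjugating enzyme gene at 3R 4948755-4952682, had 803 to 4287 bp (median 3494 bp) in the 16 wild-type lists and no peak in any mutant list. hkb, a gap gene of the embryo's ends at 3R 4345015-4346646, had a peak in 16 wild-type and 12 mutant lists. Late Zelda covered 2140 and 2282 bp of it in wild type against 2632 bp, its whole span with flanks, in both mutant lists. Over the longer region that holds hkb, 3R 4336800-4355610, the order was the reverse. There late Zelda covered 17097 and 17817 bp in wild type against 11413 and 9774 bp in the mutant.

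Among the longest regions, some without any gene record carried peaks in all 16 mutant lists. The region X 23375875-23394765 holds no gene record and had a peak in all 16 mutant lists, in no wild-type list of the 4 antibodies and in both early IntS11 lists. Pol II covered 17913 and 18221 bp of it at 1-1.5 h and 18400 and 18345 bp at 2.5-3 h in the mutant, GAF 1017 to 6517 bp, and IntS11 1875 and 1921 bp in early wild type. The region X 23321298-23338519, without a gene record too, had a peak in 16 mutant lists and in the 2 late GAF lists of wild type, at 313 and 728 bp. lncRNA:CR46253, at 2L 23239253-23240411, was overlapped in 0 of 16 wild-type and 16 of 16 mutant lists, by 283 to 1075 bp. CG12446, at X 22809292-22811935, had a peak on it or its 500 bp flanks in 0 and 13 lists. Mutant lists covered 0 to 993 bp there (median 185 bp). Early mutant Pol II covered 187 bp in both lists, by peaks of 4404 and 4343 bp that lay mostly outside it.

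Pseudogenes of ribosomal RNA form a group on X, where 14 of 18 such records lie in the window. They are near-identical to the repeated ribosomal RNA genes, so that reads there cannot be placed with certainty. Pol II was at the ends of 1 of 14 in both early wild-type lists and 12 of 14 in both early mutant lists, and of 0 and 13 at 2.5-3 h. pSer5 was at 0 and 8, then at 0 and 13, and Zelda at 0 and 4, then at 0 and 10. Over all gene records Pol II, pSer5 and Zelda were each at fewer ends in the mutant at both stages. GAF differed less, at 5 and 4 early and at 12 and 9 late, and IntS11 was at 6 and 8 in wild type. In larvae Pol II was at 12 of 14 in both genotypes. At 28SrRNA-Psi:CR45859, at X 23214452-23217140, late Pol II covered 3264 and 3235 bp in the mutant lists but 0 in the wild-type ones.

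Larval Pol II lists differed little by genotype in the windows. Wild type had 418 and 277 window peaks, 5.1% and 4.86% of the lists, and the zygotic mutant 282 and 311, or 4.71% and 4.51%. The shares did not overlap, but 2 lists against 2 cannot reach an exact permutation p below 0.333 (difference -0.37 points, p = 0.333). Both lists of wild type and neither of the zygotic mutant had a peak in 41 of 602 window regions, the opposite held for 29, and 130 had a peak in all 4, against 4.03%, 2.79% and 30.7% of the regions of the whole genome.

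Other centromere-near or repeat-rich DNA was compared only to place these values. On 2R up to 5 Mb wild-type lists of the 4 antibodies had 0.136% to 4.56% of their peaks and mutant lists 3.48% to 21.0%. The Y chromosome held 0.0257% to 1.2% and 4.13% to 11.1%. Chromosome 4, which is rich in heterochromatin but carries many active genes, held 1.59% to 3.02% in wild type and 0.306% to 1.31% in the mutant, the opposite order.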

How the data were processed

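ChIP-seq peaks were used from 40 of 76 samples, 36 embryo and 4 larval lists in 20 groups of 2. The other 36 were not analysed here. The deposited files give chromosome, start and end of each peak on dm6, with no header, height or read count, and the value is therefore a position in base pairs. Tools listed in the submitters' processing notes, with neither roles nor thresholds, are MACS2 (2.2.7.1), Bowtie2 (2.2.5), Trimmomatic (0.39), deepTools (3.5.1) and SAMtools (1.18). Groups were read from the sample titles. The members, gene list and tests were chosen with earlier results of these data known.

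Peaks with midpoints in the windows were counted per list, and merged where they overlapped by at least 1 bp. The 60 mitochondrial peaks were left out. Gene records came from a RefSeq table of Release 6 without strand, exons or sequence, so neither promoters nor introns were told apart. Named genes were members of the heterochromatic list, those under peaks of most lists, the 3 most covered gained and lost genes of each comparison, and those under the 5 longest regions. Two-sided exact permutation tests exchanged genotype labels inside each antibody-stage pair, on numbers (log2 after adding 1) and on shares, adjusted by Benjamini-Hochberg over 14 tests. Python 3.11.15 was used with numpy, pandas and scipy, and the functions were tested on simulated lists. Depth was unknown, so no interval that needs it is given. Alternatives were peaks of at least 500 bp only, joined peaks, other window edges, each window or list left out, and a replicate block.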

Additional observations from a re-analysis of the deposited data

Results flagged for a closer look

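In wild-type embryos the share of peaks near the centromeres went opposite ways with stage. Both IntS11 lists were lower at 2.5-3 h than at 1-1.5 h, by 6.85 points on average, whereas Zelda, GAF, Pol II and pSer5 were higher. The difference of IntS11 minus the mean of the other antibodies was -8.46 points. It was chosen after the directions were seen, so no p-value is given for it. The number of IntS11 peaks in the windows did not fall, at 128 and 120 early and 144 and 158 late. In the whole genome it went from 1410 and 1276 to 6065 and 6552 over the same stages, and the part of this number in the share was not tested.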

How the results depend on the processing

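Of 282 alternatives over 20 results, 270 kept direction and side of the threshold, among them all for number, share and covered length by genotype. Median peak length did not pass with peaks of at least 500 bp (-0.076), joined intervals (-0.035), without 3R (-0.093) or with 3R only up to 4 Mb (-0.072). The wild-type stage difference turned positive without X (0.25 points), without IntS11 lists (1.61) and without 2.5-3 h replicate 2 (0.023; range over replicates left out -0.181 to 0.023). With peaks of at least 500 bp the merged window regions over all lists numbered 3362, against 5399 with all peaks. Summed over the genotype comparisons of embryos, 162 regions were then kept and 5275 gained, both below the sums for all peaks. With 50% cover required, 113 were kept. Leaving out replicates gave 1029 to 1499 lost regions. The replicate numbers of wild type and mutant share only a number: deviations of same-numbered lists correlated between -0.058 and 0.070. With the number as a replicate block the share difference was 25.2 points and no call changed. The causes were not tested. Peak heights and depth, unknown here, limit every value.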
